A study of Mus musculus with 3 samples.

Results

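The 44 protein-coding genes of forkhead factors in the mouse genome were examined for binding of Tbx4 and Hoxc10 in the embryonic hindlimb bud. The members were taken by symbol (Fox, a letter from a to s, and a number) from a RefSeq table of the mm10 assembly with 21883 protein-coding genes, and they form 19 subfamilies named by the letter. The study used chromatin immunoprecipitation with sequencing (ChIP-seq) on hindlimb buds of wild type CD1 embryos at stage e11.5. It comprised 3 samples with 1 antibody each: a homemade antibody to Tbx4, an Abcam antibody to Hoxc10 and a Santa Cruz antibody to Hoxc10. Data of the Santa Cruz antibody were not analysed here. No embryo was treated and all carried the same genotype.

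Each of the 2 analysed samples is represented by 1 deposited list of peak summits, positions of 1 bp where enrichment was highest. There are no replicates, the read depth is unknown, and no difference between the factors or subfamilies was tested. Intervals are 95% Wilson intervals and cover counting error only. Wording in the name of the Hoxc10 list may mean that it was limited to Abcam summits within 200 bp of Santa Cruz peaks. The lists hold no expression values, so neither the tissue label nor expression of the forkhead genes could be checked against markers. A site bound in few cells and a site bound weakly in many cannot be told apart in bulk tissue.

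Forkhead factors share a winged-helix domain that binds DNA, and several can open compacted chromatin for other factors. Foxc and Foxf genes and Foxl1 act largely in mesenchyme, Foxa genes in endoderm and notochord, Foxd genes in neural crest, kidney stroma and neural tissue. Foxo factors respond to insulin signalling, and Foxp factors act as repressors in heart, lung, blood and neural cells. Tbx4 is a T-box factor of the hindlimb, and Hoxc10 is a posterior homeodomain factor. In spinal motor neurons that innervate the limbs, Foxp1 is a known partner of Hox proteins.

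A gene's domain was the gene itself and the space to the next protein-coding gene on each side, at most 1 Mb per side. Summits of Tbx4 fell in the domains of 17 of the 44 forkhead genes, or 38.6% (25.7 to 53.4%), compared with 17.2% of all protein-coding genes. Hoxc10 summits fell in the domains of 10 members, or 22.7% (12.8 to 37.0%), compared with 6.83% of all genes. Summits of both factors were present at 9 members (20.5%, against 5.0% of all genes), and 26 members had neither (59.1%, against 81.0%). Foxo3 was the 1 member with a Hoxc10 summit and no Tbx4 summit. Foxf2 and Foxc1 are counted separately here although their summits are the same, and the intervals treat all members as independent.

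These domains held 33 distinct Tbx4 summits, 0.69% of that list (0.492 to 0.968%), and 18 distinct Hoxc10 summits, 1.12% of that list (0.707 to 1.76%). Distinct domain sequence of the members came to 12.93 Mb. The density was 2.551 Tbx4 summits per Mb, against 1.795 per Mb over the domains of all genes. For Hoxc10 it was 1.392 per Mb against 0.604 per Mb. There were 1.83 Tbx4 summits for each Hoxc10 summit in forkhead domains and 2.97 over all gene domains.

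**Figure D1:**
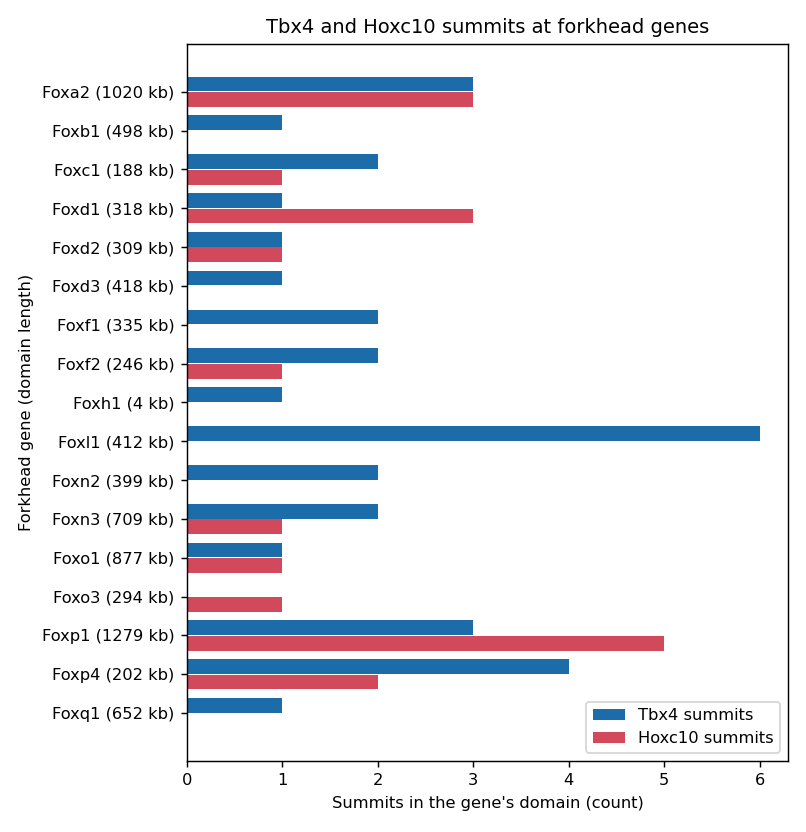
Number of Tbx4 (blue) and Hoxc10 (red) summits in the domains of 17 of the 18 forkhead genes with at least 1 summit (1 is not shown), with the domain length in kb beside the gene name. Foxl1 has the most Tbx4 summits, 6, and Foxp1 the most Hoxc10 summits, 5; the summits between Foxf2 and Foxc1 are counted for both genes.

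Domain length moved with these counts. The median domain was 174.0 kb long for forkhead genes and 67.3 kb for all genes. Members with a Tbx4 summit had a median domain of 411.9 kb (17 genes) and those without 57.8 kb (27 genes). For Hoxc10 the medians were 313.7 kb (10 genes) and 81.1 kb (34 genes). Of the 13 members with domains under 50 kb, 1 had a Tbx4 summit (7.69%, against 6.8% of all genes of that length) and 0 had a Hoxc10 summit (against 0.812%). Of the 11 members between 50 and 200 kb, 1 had a Tbx4 summit (9.09%, against 13.9%) and 1 a Hoxc10 summit (9.09%, against 3.56%). Members with long domains had a summit more often. Between 200 and 500 kb, 9 of 13 had a Tbx4 summit (69.2%, against 34.9%) and 5 of 13 a Hoxc10 summit (38.5%, against 16.0%). Over 500 kb the counts were 6 of 7 for Tbx4 (85.7%, against 53.1%) and 4 of 7 for Hoxc10 (57.1%, against 34.6%). For Tbx4 the share of members with a summit exceeded that of all genes mainly in domains over 200 kb. For Hoxc10 it was also higher between 50 and 200 kb, by 1 gene.

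**Figure D2:**
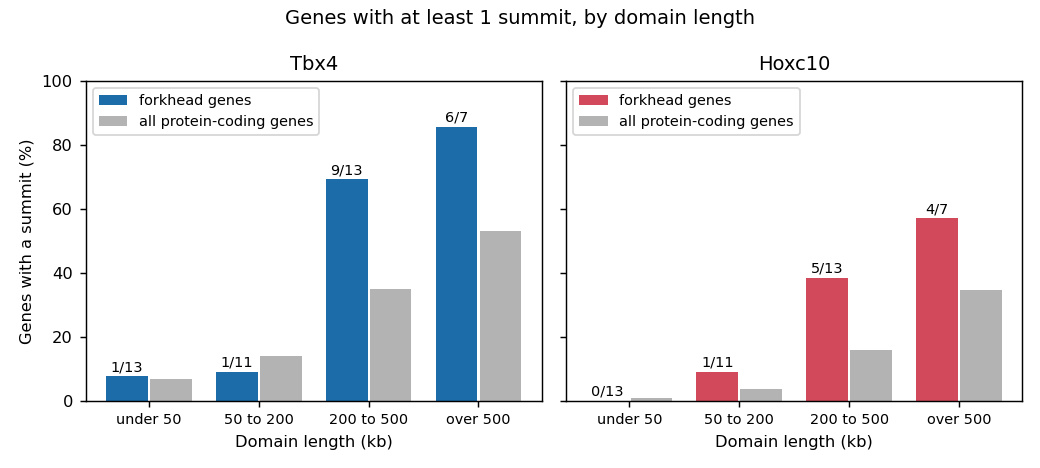
Percentage of genes with at least 1 summit in their domain, for forkhead genes (coloured bars, with the count of members above each) and all protein-coding genes (grey), in 4 classes of domain length for each factor. Forkhead genes stand above all genes in both classes over 200 kb for both factors, and near or below them for Tbx4 in shorter domains.

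Most summits lay outside the forkhead genes, and the median distance from the gene was 89.6 kb for Tbx4 and 102.0 kb for Hoxc10, with summits inside a gene counted as 0. Of the Tbx4 summits 28 lay outside the forkhead gene and 5 inside (15.2%), and 14 of the 33 were over 100 kb away (42.4%, 27.2 to 59.2%). Of the Hoxc10 summits 14 lay outside and 4 inside (22.2%), and 9 of 18 were over 100 kb away (interval 29.0 to 71.0%). The nearest protein-coding gene end belonged to a forkhead gene for 21 Tbx4 and 10 Hoxc10 summits. The others were closer to the neighbour, and which gene a summit acts on was not measured. These placements were not counted over all genes, so they have no background beside them. Gene length also enters them. Foxp1, a gene of 597.4 kb, held 3 Tbx4 and 2 Hoxc10 of the summits inside a gene. Foxn3, of 373.6 kb, held 1 of each. When a domain was limited to 50 kb per side, 6 members had a Tbx4 summit (13.6%, against 13.0% of all genes) and 5 a Hoxc10 summit (11.4%, against 3.9%). At that reach the Tbx4 share of the members was close to that of all genes.

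**Figure D3:**
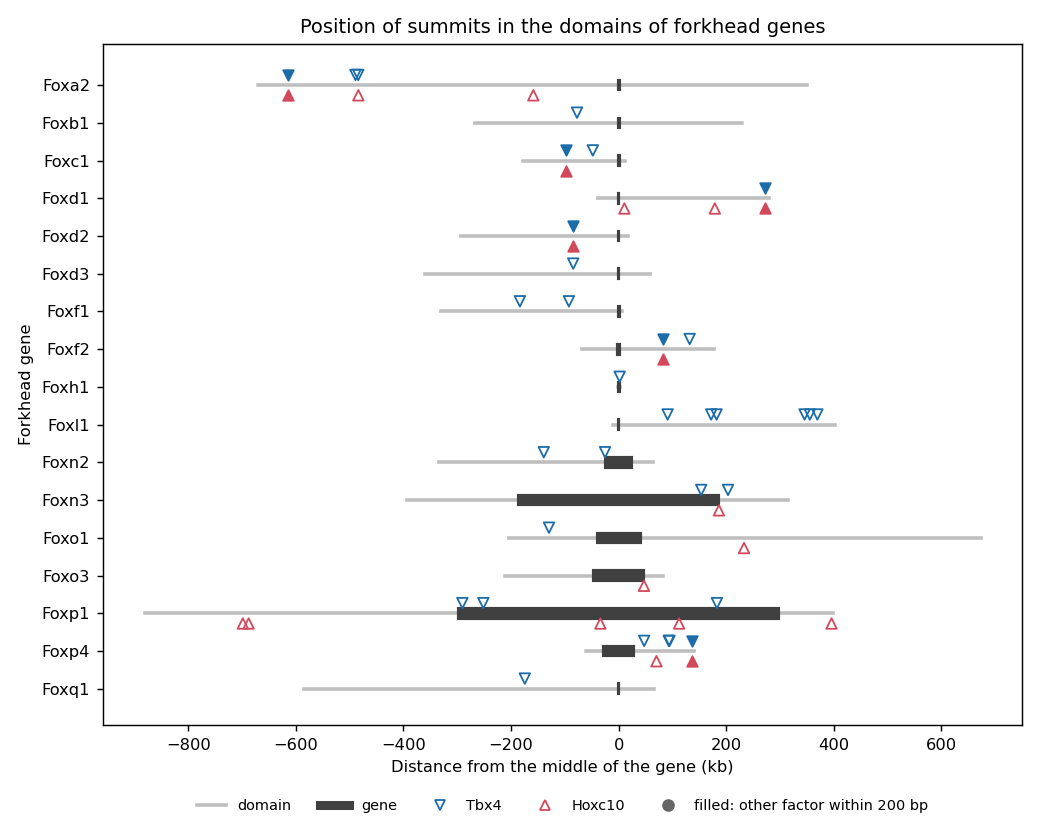
Positions of Tbx4 (blue, pointing down) and Hoxc10 (red, pointing up) summits along the domains (grey lines) of 17 of the 18 forkhead genes with a summit (dark bars, 1 is not shown). Positions are in kb from the middle of each gene, and filled symbols have a summit of the other factor within 200 bp. Filled symbols stand in the domains of Foxa2, Foxc1, Foxf2, Foxd1, Foxd2 and Foxp4, and the shared position between Foxf2 and Foxc1 is drawn for both.

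Sites were called shared when summits of both factors lay within 200 bp. In forkhead domains 5 shared sites were found, in the domains of 6 members (13.6%, against 2.66% of all genes). This share was not split by domain length. The domains of the 6 members were 188.2 to 1020.3 kb long, against a median of 67.3 kb for all genes. At 50 kb per side 0 members had a shared site (against 1.22% of all genes). Shared sites made up 27.8% of the Hoxc10 summits in forkhead domains (12.5 to 50.9%), against 32.1% of the whole Hoxc10 list. They made up 15.2% of the Tbx4 summits (6.65 to 30.9%), against 10.9%. Both intervals include the share of the whole list. The score that the authors deposited with each summit is that of the peak caller on a −log10 scale, and it is used here only within 1 list. The median score was 4.46 for Tbx4 summits in forkhead domains (quartiles 2.94 and 6.19), against 3.67 for the list (2.94 and 7.14). For Hoxc10 it was 7.725 (5.21 and 14.1), against 7.72 (5.05 and 12.99). The highest score of each factor in forkhead domains belonged to the shared site at Foxp4.

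**Figure D4:**
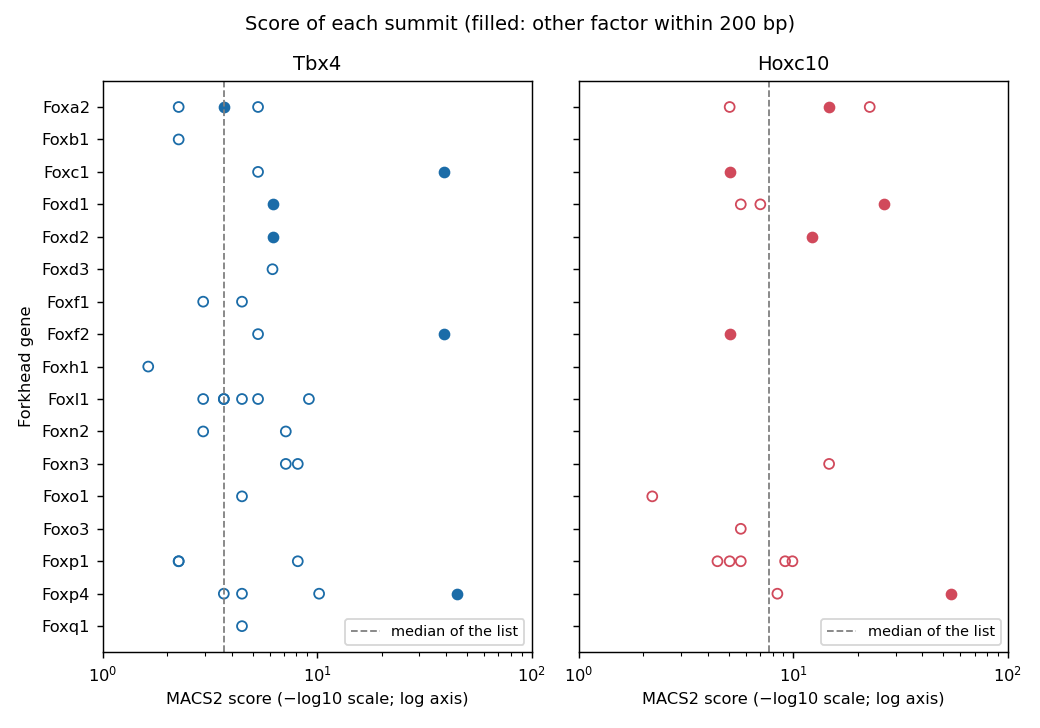
Score of each Tbx4 (left) and Hoxc10 (right) summit in the domains of 17 of the 18 forkhead genes with a summit (1 is not shown), on a logarithmic axis. Filled points have a summit of the other factor within 200 bp and the dashed line is the median of the whole list. The shared site of Foxp4 stands highest in both panels, at 44.83 and 54.67, and the shared site between Foxf2 and Foxc1, at 38.86, is high for Tbx4 only and drawn for both genes.

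The Foxp subfamily held 7 Tbx4 and 7 Hoxc10 summits in 2.47 Mb, 2.84 per Mb for each factor, all at 2 of its 4 members. Foxp1 encodes a repressor that acts in heart, blood and motor neurons, and its gene of 597.4 kb lies on chromosome 6 (98925342 to 99522746). Its domain of 1279.1 kb had 3 Tbx4 and 5 Hoxc10 summits. As many Hoxc10 summits or more were found at 0.256% of all genes, and a domain as long or longer at 1.84%. All 3 Tbx4 summits were inside the gene, at 98933536 and 98972526 with scores of 2.26 each and at 99406690 with a score of 8.12. Of the Hoxc10 summits, 2 lay inside the gene, at 99190139 (score 5.69) and 99336401 (5.05). Another 2 lay 399.9 and 389.1 kb below it, at 98525418 (9.16) and 98536218 (4.43), and the last lay 97.0 kb above it at 99619795 (9.91). That summit was 2084 bp from the neighbouring gene Eif4e3, a cap-binding protein. None of the Foxp1 summits was shared, and the closest pair of both factors was 70.3 kb apart.

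Foxp4, related to Foxp1 and expressed in lung and gut, is shorter, with a gene of 57.5 kb on chromosome 17 (47867133 to 47924632, minus strand) and a domain of 202.1 kb. It held 4 Tbx4 and 2 Hoxc10 summits, or 19.8 and 9.9 per Mb. All lay upstream of its listed start. The shared site was 107.1 kb upstream by the Tbx4 summit at 48031778 (score 44.83, rank 50 of the list) and 107.0 kb by the Hoxc10 summit at 48031648 (54.67, rank 14), 130 bp apart. It lay 4967 and 5097 bp from the neighbouring gene 1700122O11Rik, closer than to Foxp4. The other Tbx4 summits were at 47943290 (4.46), 47988989 (10.21) and 47990376 (3.67), between 18.7 and 65.7 kb upstream. The other Hoxc10 summit, at 47966225 (8.43), lay 22.8 kb from the nearest of them. Foxp2, known for vocal behaviour, had 0 summits of either factor in a domain of 965.3 kb. Foxp3, the factor of regulatory T cells, had 0 in 21.0 kb, on chromosome X where the lists hold only 13 Tbx4 and 3 Hoxc10 summits.

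Foxd genes had 3 Tbx4 and 4 Hoxc10 summits in 1.1 Mb (2.72 and 3.63 per Mb), and both factors met at 2 of the 4 members. Foxd1, a factor of kidney stroma and retina on chromosome 13 (98354245 to 98356705, plus strand), had 1 Tbx4 and 3 Hoxc10 summits in 318.0 kb. Its shared site lay 270.5 kb above the gene, with Tbx4 at 98627210 (score 6.19) and Hoxc10 at 98627078 (26.57), 132 bp apart. That site was 7768 bp from the next gene, Tmem174. The other Hoxc10 summits were 9.4 kb above the gene at 98366101 (7.02) and 177.5 kb above it at 98534237 (5.69), inside the lncRNA gene Gm41032. The Hoxc10 summits of Foxd1 thus spanned nearly the whole space to Tmem174, and the Tbx4 summit coincided with the farthest.

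Foxd2, a kidney mesenchyme gene on chromosome 4 (114906280 to 114908898, minus strand), had 1 summit of each factor, and they were 33 bp apart. Tbx4 stood at 114821907 (6.19) and Hoxc10 at 114821940 (12.24), 84.4 and 84.3 kb below the gene, inside the overlapping lncRNA genes Gm33655, 9130410C08Rik and Gm12830. Foxd3, needed for neural crest and pluripotent cells, had a single Tbx4 summit 83.3 kb upstream (99573022 of chromosome 4, score 6.19). Foxd4 had 0 summits in a domain of 57.8 kb. The Tbx4 summits of Foxd1, Foxd2 and Foxd3 had the same score, one that 31.4% of the Tbx4 list reached or exceeded.

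Foxc1 stands in a cluster with Foxf2 and Foxq1 on chromosome 13, and Foxc2 in one with Foxf1 and Foxl1 on chromosome 8. Foxc1 is needed for skull, eye and heart development, and Foxf2 for the palate and gut mesenchyme. Between Foxf2 (31625816 to 31631406) and Foxc1 (31806646 to 31810635) lay a shared site with Tbx4 at 31710925 (38.86, rank 60) and Hoxc10 30 bp away at 31710955 (5.05). The Tbx4 score there was reached by 1.4% of the list, and the Hoxc10 score by 76.8%. A second Tbx4 summit, 46.0 kb upstream of Foxc1 at 31760615, scored 5.3. Foxc1 and Foxf2 share these 3 summits, which are the only ones of either gene. Foxq1, a factor of hair and stomach epithelium, had 1 Tbx4 summit, 173.0 kb below the gene at 31385126 (4.46), and 0 Hoxc10 summits.

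The cluster on chromosome 8 had Tbx4 summits and no Hoxc10 summit. Foxl1, a factor of gut mesenchyme (121127685 to 121130644), had 6 Tbx4 summits in 411.9 kb, the most of any member. As many Tbx4 summits or more were found at 0.836% of all genes, and a domain as long or longer at 11.0%. All 6 summits lay above the gene. The first was at 121220211 (2.94), followed by a pair at 121301167 (9.15) and 121311185 (4.46). The last 3 were at 121474730 (3.67), 121484565 (5.3) and 121498597 (3.67), 344.1 to 368.0 kb from Foxl1. These 3 were closer to the next gene, 1700018B08Rik, at 32179 to 56046 bp. The nearest Hoxc10 summit to any of the 6 was 325.4 kb away, with a score of 1.71. Foxf1, a Hedgehog target in lung and gut mesenchyme, had 2 Tbx4 summits below it, at 120993801 (4.46, 90.6 kb) and 120902724 (2.94, 181.7 kb). Foxc2, required in lymphatic vessels, had 0 summits in a domain of 19.3 kb, bounded by Mthfsd and Foxl1.

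Set side by side, the Foxc genes had 2 Tbx4 and 1 Hoxc10 summits (9.64 and 4.82 per Mb) and the 34 members outside Foxc, Foxd and Foxp had 23 and 7 (2.46 and 0.75 per Mb). The Tbx4 list is the longer one, with 2.97 Tbx4 summits for each Hoxc10 summit over all gene domains. The larger number of Tbx4 summits in that remainder therefore does not set it apart. Foxp, with equal numbers, and Foxd, with 1 more Hoxc10 summit, lay below that ratio, and so did Foxc. Within the remainder Foxa, with 3 summits of each factor, and Foxo, with 1 Tbx4 and 2 Hoxc10 summits, also lay below it. Foxf and Foxn, each with 4 Tbx4 and 1 Hoxc10 summits, lay above it. With counts this low and no replicates these differences were not tested. The Foxc value rests on the 3 summits that also count for Foxf2.

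Foxa2, a factor of the node, notochord and endoderm, had 3 summits of each factor in a domain of 1020.3 kb on chromosome 2 (gene 148042877 to 148046969). All lay below the gene, toward Pax1, a factor of vertebral precursors, which shares them. The shared site had Tbx4 at 147430133 (3.67) and Hoxc10 at 147430205 (14.69), 72 bp apart, 612.7 kb from Foxa2 and 55084 bp from Pax1. A further pair, Tbx4 at 147560911 (5.3) and Hoxc10 at 147561122 (5.05), missed the limit for a shared site with a distance of 211 bp. A Tbx4 summit at 147555711 (2.26) lay 5.4 kb from that Hoxc10 summit. The remaining Hoxc10 summit, at 147886295 (22.72), was the one closest to Foxa2, at 156.6 kb. Both other Foxa genes had 0 summits, Foxa1 in 90.8 kb and Foxa3 in 17.6 kb.

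Foxn genes include the thymus factor Foxn1 and the checkpoint factor Foxn3, and 2 of their summits lay within 1 kb of a gene end. Foxn3 (chromosome 12, 99190081 to 99563667, minus strand) had a Hoxc10 summit at 99563277 (14.69), inside the gene and 390 bp from its upper end. The start listed for Foxn3 in the sequence table lies elsewhere, so that this summit stands upstream of it, at -113203 bp. Tbx4 summits stood at 99530331 (8.12), inside the gene, and at 99580133 (7.14), 16.5 kb above it. The Hoxc10 summit lay between them. Foxn2 had a Tbx4 summit 366 bp outside its lower end, at 88440338 of chromosome 17 (2.94), and another 114.2 kb below at 88326480 (7.14). Foxn1 and Foxn4 had 0.

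Among the Foxo genes, targets of Akt kinase in insulin signalling, Foxo1 and Foxo3 each had 1 Hoxc10 summit. The summit of Foxo3 (chromosome 10, 42181845 to 42276695, minus strand) was at 42276291 (5.69), inside the gene and 404 bp downstream of its listed start. Foxo1 had its Hoxc10 summit 192.1 kb above the gene at 52542256 of chromosome 3 (2.2), a score that 99.4% of the list reached. It also had a Tbx4 summit 88.6 kb upstream at 52179740 (4.46), in the lncRNA gene Gm30074. Foxo4 and Foxo6 had 0 of either factor.

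Single Tbx4 summits stood at further members. Foxb1, active in the embryonic brain, had 1 at 69681961 of chromosome 9 (2.26), 75.7 kb below the gene. Foxh1, the DNA-binding partner of Smad2 in Nodal signalling, had 1 inside the gene at 76671576 of chromosome 15, 38 bp from its upper end. It had the lowest Tbx4 score of the 33, 1.63, and the next gene, Ppp1r16a, begins 28 bp beyond that end, so that the summit lies near both genes. The 7 subfamilies without a summit were Foxe, Foxi, Foxj, Foxk, Foxm, Foxr and Foxs, with 14 members in all. Foxb2 and Foxl2 had none either, in 174.6 and 66.7 kb.

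Promoters could be examined only for members with a listed start. RefSeq sequences (build GRCm38.p6, the assembly of mm10) gave a window of 250 bases before to 50 after 33 listed starts of 28 members. Of these members 0 had a summit of either factor in it. The share over all promoters was not counted, so this 0 has no background beside it. Foxh1 and Foxn2, with Tbx4 summits 38 and 366 bp from a gene end, had no listed start and were left out. The 3 starts with a summit closest by were those of Foxo3 (Hoxc10, 404 bp downstream), Foxd1 (Hoxc10, 11856 bp downstream) and Foxp4 (Tbx4, 18658 bp upstream). The 250 bases before each of them are printed because no other listed start of a member had a summit as close. They are written 5′ to 3′ on the strand of the gene, with the promoter of Foxo3 at chr10:42276696-42276945 (minus strand), that of Foxd1 at chr13:98353995-98354244 (plus) and that of Foxp4 at chr17:47924633-47924882 (minus). Matches to the motifs named below would stand in capitals, and there were none.
Foxo3: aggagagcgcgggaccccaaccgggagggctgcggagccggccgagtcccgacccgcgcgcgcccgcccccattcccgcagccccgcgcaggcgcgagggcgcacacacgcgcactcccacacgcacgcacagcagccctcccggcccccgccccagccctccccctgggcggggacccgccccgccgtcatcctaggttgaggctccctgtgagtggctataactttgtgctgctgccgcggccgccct
Foxd1: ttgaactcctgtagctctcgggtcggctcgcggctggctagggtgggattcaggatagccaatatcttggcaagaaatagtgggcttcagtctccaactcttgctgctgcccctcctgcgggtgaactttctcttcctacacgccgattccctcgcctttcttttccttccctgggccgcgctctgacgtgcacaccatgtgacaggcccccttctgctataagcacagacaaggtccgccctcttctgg
Foxp4: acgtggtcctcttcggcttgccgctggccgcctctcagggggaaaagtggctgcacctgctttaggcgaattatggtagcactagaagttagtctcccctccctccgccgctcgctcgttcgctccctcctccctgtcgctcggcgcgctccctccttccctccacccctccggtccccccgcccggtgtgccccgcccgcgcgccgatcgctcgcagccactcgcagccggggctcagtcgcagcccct
The share of G and C was 76.4% for Foxo3, 57.2% for Foxd1 and 69.6% for Foxp4.

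A T-box core site (AGGTGT), a posterior Hox site (TTTATNG) and a forkhead site (TGTTTNC) were searched on both strands of the 250 bases before each start, each motif on its own. The T-box letters were in 0 of the 33 forkhead promoters and in 11.8% of all 32851 promoters. The posterior Hox letters were in 3 forkhead promoters (9.09%, against 9.81%), those of Foxa3, Foxb2 and Foxr2. The forkhead letters were in 7 (21.2%, against 17.8%), at Foxa1, Foxd4, Foxi1, Foxj3, Foxp1, Foxp3 and Foxr2. A match is a description of letters and not of binding, and a missing match says only that these letters are not in this window.

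Genes around forkhead factors in their pathways were examined in the same way. Of 16 regulators of Foxo activity, among them kinases and adaptors of insulin signalling, 7 had a Tbx4 summit (43.8%, against 17.2% of all genes) and 5 a Hoxc10 summit (31.2%, against 6.83%). Their median domain was 404.9 kb, against 67.3 kb for all genes. The most were at Pik3r1, the regulatory subunit of PI3-kinase (4 and 4), and at the insulin receptor substrates Irs1 (4 and 3) and Irs2 (5 and 1). Of 14 Foxo target genes 3 had Tbx4 summits (21.4%, near the 17.2% of all genes), Ccng2 (2), Sesn3 (2) and Sesn1 (1), and 0 had a Hoxc10 summit (against 6.83%). Of 12 cell cycle targets of Foxm1, 0 had a Tbx4 summit (against 17.2%) and 1, Cenpf, had a Hoxc10 summit (8.33%, against 6.83%), with a median domain of 28.5 kb. Of 13 Foxh1 partners and Nodal pathway genes 4 had Tbx4 summits (30.8%, against 17.2%) and 2 Hoxc10 summits (15.4%, against 6.83%), with 3 and 1 at Acvr2a and 3 and 0 at Smad2.

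Against other families of developmental factors, the density at forkhead genes (2.55 Tbx4 and 1.39 Hoxc10 summits per Mb) was intermediate. It was 10.7 and 4.46 at the 13 Tbx genes, 5.65 and 1.71 at the 19 Sox genes and 2.18 for each factor at the 9 Pax genes. The Pax value is not separate, since the 3 Tbx4 and 3 Hoxc10 summits of Pax1 are also those of Foxa2. The density per Mb was lower in the families that follow, except Lhx for Tbx4. These had 2.69 and 0.67 at the 8 Lhx genes, 1.67 and 0.84 at the 6 Gata genes and 1.43 and 0.13 at the 17 Klf genes. The fullest member domains had fewer summits, at most 6 Tbx4 and 5 Hoxc10, than those of Tbx genes (16 and 9) and Sox genes (17 and 7). In each of the compared families the share with a Tbx4 summit, 41.2% (Klf) to 53.8% (Tbx), exceeded the 38.6% of forkhead genes. The higher Tbx4 share than that of all genes (17.2%) was thus not particular to forkhead genes. For Hoxc10 the forkhead share of 22.7% lay above Klf (5.88%) and Lhx (12.5%). It lay below the other families, at 30.8% (Tbx) to 44.4% (Pax).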

How the data were processed

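ChIP-seq summit lists were used for 2 samples, 1 per factor, with 4780 summits for Tbx4 and 1614 for Hoxc10. The submitters' processing notes name Bowtie2 2.2.6, MACS2 2.1.1.20160309, HOMER and build mm10. Selection of summits, control and any pooling are unstated in the sources used here. Further wording in the list names, part of which holds the number 4780, may mean that summits were selected in other ways. No label explains it. The score deposited by the authors is on a −log10 scale, of p or q unstated, and read depth is unknown, so precision covers counting error only.

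Summits were counted in gene domains as 1-based positions with Python 3.11.15 and pandas 2.3.3. Genes came from a RefSeq table of GRCm38.p6 that gives no strand. Strands came from the promoter table, which matched 28 of 44 members. Motifs were searched in the 250 bases before a start, leaving out the transcribed bases that the plan had included. The planned comparison of forkhead proteins and the motif search around summits were not run, since no protein or genome sequence was used here. Wilson intervals came from statsmodels 0.14.6. No test was run, since each factor has 1 list. Counting was tested on simulated summits with known answers.

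By rule, every member is named by its counts, and described in full are every Foxc, Foxd and Foxp gene, other members with 3 or more summits, the 10 highest summits of each factor and all shared sites. The other members with a summit and the printed promoters were added after their values were seen. Members and lists were chosen with earlier results of these data known. Alternatives covered reach, neighbours, assignment, score, list size, merging, gene ends, the distance for a shared site and 1 member left out. Some items that the rule names are not reported here, although they are included in the counts.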

Additional observations from a re-analysis of the deposited data

How the results depend on the processing

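Of 78 alternative values, 52 stayed within 1.5 times the reported count, or inside the interval of the share, and 26 moved further. The reach of a domain moved most. At 50 kb per side, 6 members had Tbx4 summits (13.6%, against 13.0% of all genes) and 5 had Hoxc10 summits (11.4%, against 3.9%). Their domains held 9 and 6 summits. A shared site was at 0 members (against 1.22% of all genes), and the shared share was 0.0%. Foxc, Foxd and Foxp held 1, 1 and 7 summits of both factors together. At 100 kb there were 19 Tbx4 and 9 Hoxc10 summits, 3 members with a shared site (6.82%, against 1.58% of all genes) and 4 Foxd summits. Counting only summits nearest to a forkhead gene left 21 Tbx4 and 10 Hoxc10 summits, and 1, 4 and 7 summits for Foxc, Foxd and Foxp. It left 2 members with a shared site (4.55%), for which the share of all genes was not counted. With summits at or above the median score of each list, 6 members had a Hoxc10 summit (13.6%, against 4.21% of all genes). Hoxc10 then had 9 summits in forkhead domains, and Foxp held 9 summits of both factors. With only as many of the highest Tbx4 summits as the Hoxc10 list holds, 10 members had a Tbx4 summit (22.7%, against 7.43% of all genes). Their domains held 12 Tbx4 summits. The cut fell among 371 summits tied at a score of 5.3, which were taken by chromosome name and position. A limit of 50 bp for shared sites gave 3 members (6.82%, against 1.3% of all genes) and 11.1% of Hoxc10 summits, against 13.5% of the list. These settings count fewer sites or shorter domains by construction. Without Foxp1 the counts were 30 and 13. No paired analysis was possible because each factor has 1 sample and no test was run. Depth is unknown, so a count of 0 does not show that a gene is unbound.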
